A study of Mus musculus with 8 samples.

Results

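Expression in the liver of mice given the higher of the study's lead doses was set against that of a liver control. The comparison rests on 2 of the 8 arrays of the series, those labelled as control liver and high-dose liver. A probe entered the comparison when its spot on each liver array was marked by the scanner software as unsaturated and well above background. This held for 28001 of 56605 probes on the design (49.5%), which measured 19277 of 37325 gene names (51.6%). The series measured brain, kidney and liver of male mice after 3 weeks of drinking water with or without lead acetate. It has 1 array for each pairing of tissue and dose that it holds. Control mice received distilled water, and high-dose mice received lead acetate at 1000 mg/L. The 8 arrays include none of liver at the lower dose, 100 mg/L. Strain, age, the number of animals behind an array, the hour of sampling and the state of feeding are not given in the sources used here.

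Lead is a toxic metal that binds protein thiols and takes the place of zinc and calcium in proteins. Liver is a main site of its storage in soft tissue, and hepatocytes make metallothioneins, small cysteine-rich proteins whose genes are switched on when metals load the zinc-sensing factor MTF1. The same cells make much of the body's cholesterol and most of its plasma proteins, and a large share of their transcripts rise and fall with the time of day under the circadian clock.

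Levels below are log2 values of the processed signal over the 75th percentile of the same array, so a level of 0 is at that percentile and values of the 2 arrays can be set side by side for a gene. Differences are the high lead level minus the control level. With 1 array in each group there are no replicates and no test, so the spread between animals is unknown and every difference compares these 2 arrays only. The array error given after a difference is the scanner's own error of both spots on the log2 scale. The size rule, by which genes are called higher or lower here, asks for a difference of 1 or more in size (a 2-fold change) that also exceeds 3 array errors. The 75th percentile of the signal was 427 on the control array and 435 on the high lead array, no liver spot was saturated, and Pearson's r between the arrays was 0.995 over the measured probes, which describes 2 arrays of the same tissue. The 12 hepatocyte markers, Alb and Ttr among them, were all measured, with a median level of 9.56 on the control array and 9.62 on the high lead array, which fits the liver label, and none was called.

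By the size rule 68 genes were higher in high-dose liver (0.353% of the genes measured) and 88 were lower (0.457%), together 0.809%. The most raised gene symbols were the metallothioneins Mt1 and Mt2, followed by the clock genes Usp2 and Dbp. The most lowered was Cdkn1a, which encodes the cell-cycle inhibitor p21, with a low level of -3.27 on the high lead array. This rank depended on the background correction. Under another one (normexp) Cdkn1a came to -1.13 and Gadd45g to -1.67. Of the 68 higher genes 48 had gene symbols and 20 carried clone, model or locus names, as did 36 of the 88 lower genes. The median difference over all measured genes was -0.02 with an SD across genes of 0.27, and the 1st and 99th percentiles were -0.78 and 0.70. The calls were unevenly spread over the levels. With the genes split into 4 equal parts by mean level, the dimmest part held 32 of the higher and 47 of the lower calls, and the brightest part held 6 and 12. Among the 15 higher genes with a further measured probe, all further probes had the same sign in 14, and among the 7 such lower genes in 5. All further probes also differed by 2-fold or more in that direction in only 5 of the 15 and 3 of the 7. The share with the same sign over all genes with further probes is not given here. Just inside the size limit lay Rian, Ccser1 and Mthfd2, each at 1.01, and just outside it Angptl8 and Myh4, each at 0.99.

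**Figure D1:**
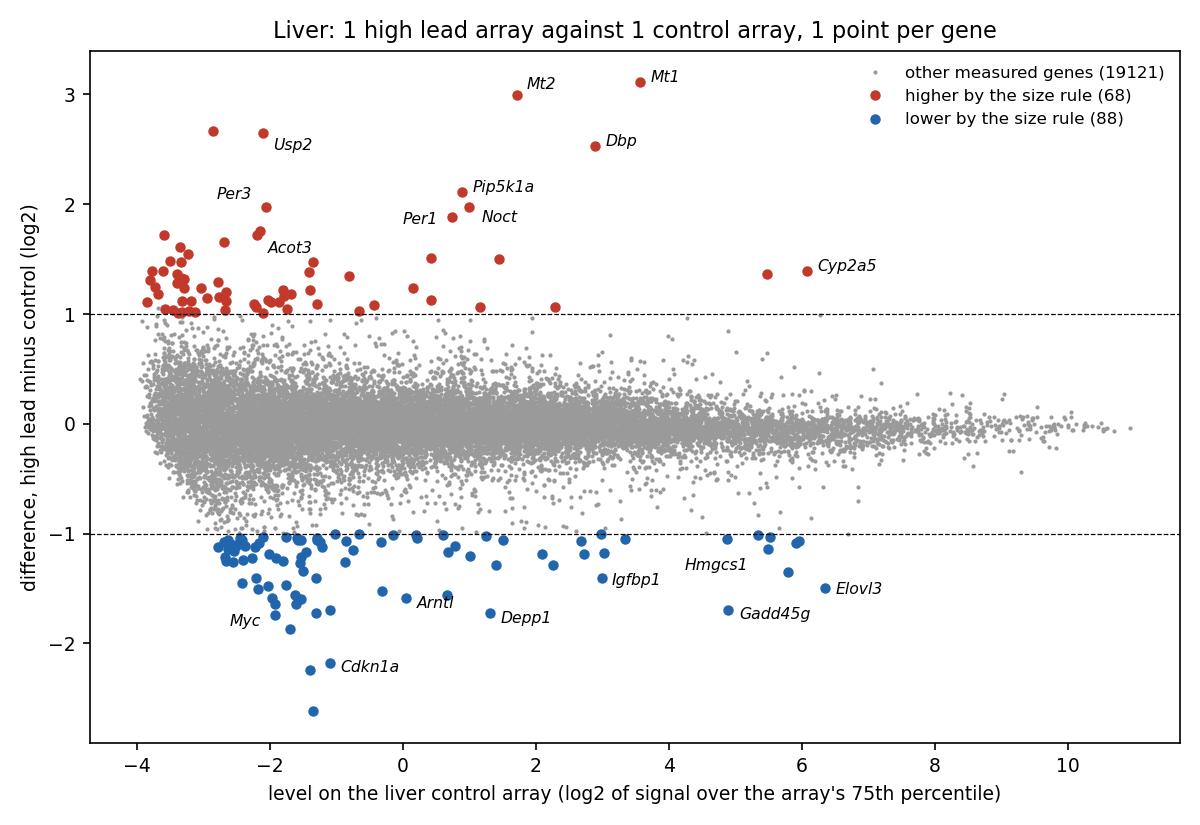
Each point is 1 of the 19277 measured genes, with its level on the liver control array on the x axis (log2 of signal over the array's 75th percentile) and the high lead minus control difference on the y axis (log2), and dashed lines mark a 2-fold change. The 68 higher genes are red and the 88 lower ones blue. Mt1 and Mt2 stand at the top, and most called points lie at low levels.

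The metallothioneins Mt1 and Mt2, which bind zinc, cadmium and other metals, were the genes raised most. The level of Mt1 was 3.56 on the control array and 6.67 on the high lead array, a difference of 3.11 (array error 0.20) or 8.65-fold, by a probe at chr8:96704165-96704224 of the mm9 build. A second Mt1 probe, close to background, went from -3.77 to -3.29, a difference of 0.48. For Mt2 the level was 1.71 in control and 4.70 in high-dose liver, a difference of 2.99 (array error 0.20), by the probe at chr8:96697371-96697430. Both genes lie side by side on chromosome 8 and were raised by a like amount. Mt3, the brain-type metallothionein of the same cluster, had levels of 0.63 and 0.71, a difference of 0.08. The levels of Mtf1, which encodes the zinc sensor that drives these genes, were 1.97 and 2.26, a difference of 0.29, and its 3 other probes gave 0.18, 0.39 and 0.03. Mt4 was not well above background on either array. Thus 2 of the 4 measured members of this list were higher by the size rule.

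The 250 bases before the RefSeq start of both raised metallothionein genes (GRCm38.p6, plus strand of chromosome 8) are shown because these genes differ most and are known targets of a factor with a defined DNA element. Capitals mark each match, on either strand, to the core of the metal response element, searched as TGCACNC or TGCGCNC. The first window is chr8:94178839-94179088 and the second chr8:94172368-94172617.
Mt1: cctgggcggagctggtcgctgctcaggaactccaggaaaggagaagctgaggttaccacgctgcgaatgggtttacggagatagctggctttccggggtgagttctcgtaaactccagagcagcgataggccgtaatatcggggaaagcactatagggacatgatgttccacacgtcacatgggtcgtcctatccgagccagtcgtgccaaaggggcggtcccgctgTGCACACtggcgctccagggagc
Mt2: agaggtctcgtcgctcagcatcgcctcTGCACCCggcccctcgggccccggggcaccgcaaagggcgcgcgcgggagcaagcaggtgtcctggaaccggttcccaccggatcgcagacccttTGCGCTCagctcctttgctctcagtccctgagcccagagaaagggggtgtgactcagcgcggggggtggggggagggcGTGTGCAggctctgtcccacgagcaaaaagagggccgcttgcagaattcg
The Mt1 window held 1 match, which began 23 bases before the start, and the Mt2 window held 3, which began 223, 128 and 50 bases before it. Of all 32851 promoter windows of the same length 21.4% held at least 1 match and 5.17% held 2 or more, so a single match is common. Bases after the start and farther upstream were not searched, so the counts hold for these windows and not for the whole promoters. A match describes the letters only and was not tested as a binding site.

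The lists of genes that handle other metals held few calls. None of the 7 measured zinc exporters of the Slc30 family, none of the 12 measured Slc39 importers and none of the 8 copper genes was called. Slc30a1, the zinc exporter that MTF1 also controls, differed by 0.12. In the iron list 1 of 22 genes was lower and none was higher, with a median difference of -0.05. The lower gene was Hjv, which encodes hemojuvelin, a co-receptor that raises hepcidin output. Hjv had levels of 0.61 and -0.41, a difference of -1.01 (array error 0.21) close to the limit, and under another background correction (normexp) it fell short, at -0.89. The hepcidin gene Hamp differed by -0.10. Id1, another target of the BMP pathway that hemojuvelin serves, had levels of -0.63 and 0.31, a difference of 0.95 that was short of the rule and of opposite sign. None of the 13 genes of heme synthesis and breakdown was called, and their median difference was 0.00. The widest of them was Alas1, the rate-limiting enzyme of heme synthesis in liver, with levels of 7.07 and 7.57, a difference of 0.50. Alad, the enzyme that lead inhibits, differed by 0.03. Slc41a3, a magnesium carrier of the cation list, was higher, from a low level of -3.40 to -2.11, a difference of 1.28, but only 0.50 under the normexp correction.

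**Figure D2:**
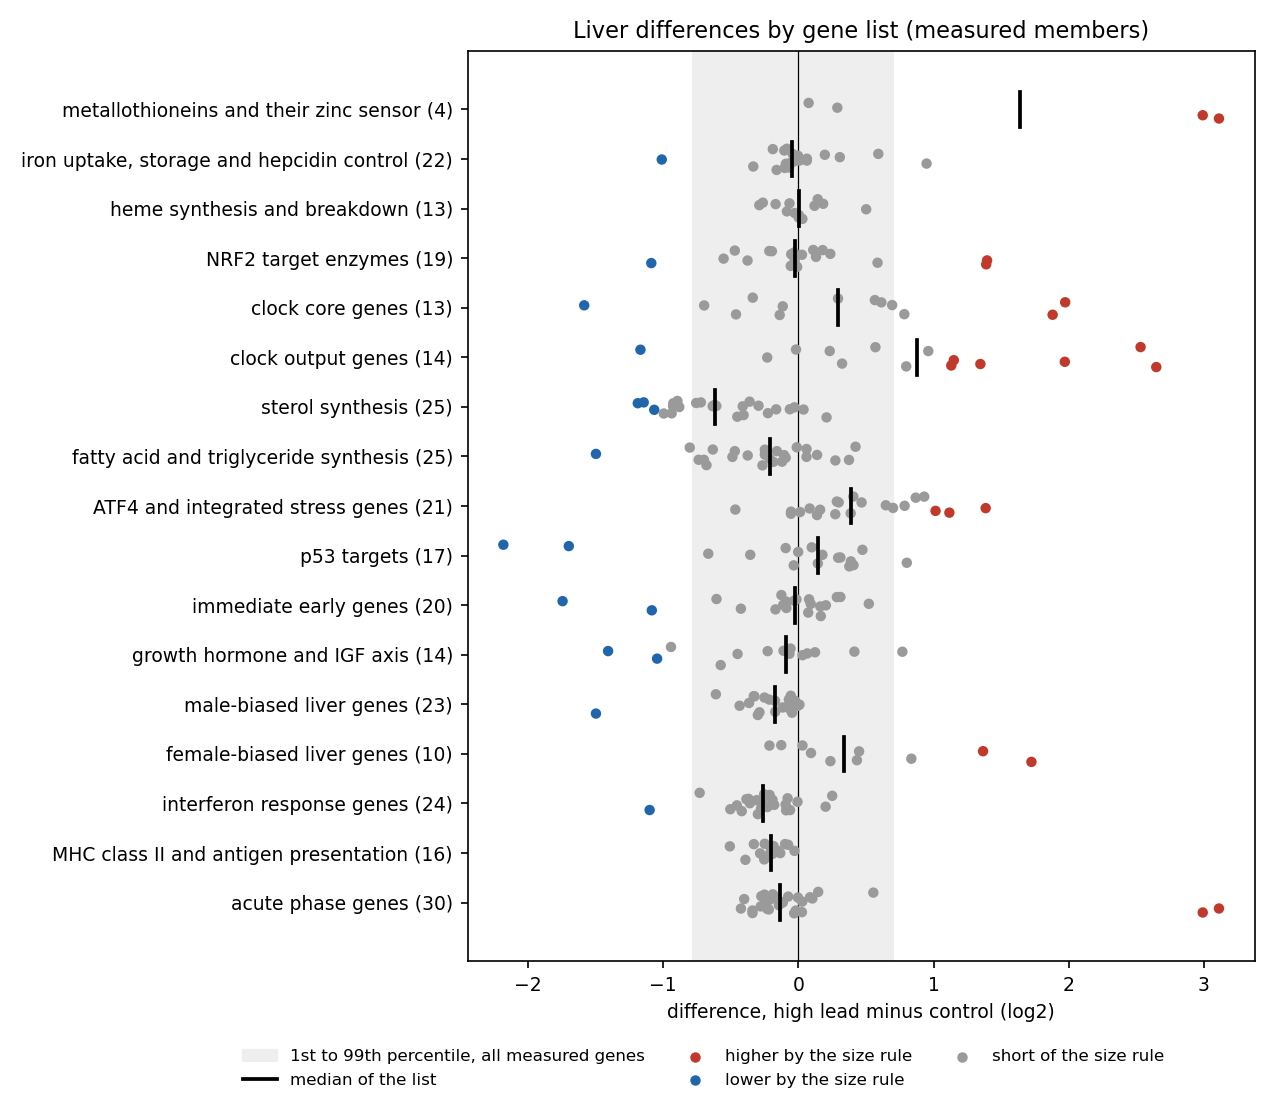
Each point is a measured member of a gene list, with its high lead minus control difference on the x axis (log2) and the number of measured members in parentheses. Black bars are list medians and the grey band runs from the 1st to the 99th percentile of all genes. Clock output genes (median 0.88) and sterol genes (median -0.62) have the list medians farthest from 0 after the metallothionein list.

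Enzymes that handle foreign compounds were mostly alike in both livers, with exceptions on both sides of zero. Of the 41 measured cytochrome P450 genes of families 1 to 3, 2 were higher and none lower, and their median difference was -0.04. The higher ones were Cyp2a5, the coumarin hydroxylase of mouse liver, and its close paralog Cyp2a4, a steroid hydroxylase. Cyp2a5 had levels of 6.07 and 7.47, a difference of 1.40 (array error 0.20), and Cyp2a4 had levels of 5.48 and 6.84, a difference of 1.37. These genes are so alike in sequence that their probes may not tell them apart, so they may be a single measurement. Cyp2b13, a relative of Cyp2b9, was well above background on the high lead array only, where it was at least 7.03-fold higher, and Cyp2b9 differed by 0.84. Among 19 measured targets of NRF2, the factor that answers oxidants and electrophiles, 2 were higher, 1 lower and the median difference was -0.03. Nqo1, a quinone reductase, was higher, with levels of -3.60 and -2.21, a difference of 1.39 that came to 0.66 under the normexp correction. Cyp2a5 is the other higher member. Osgin1, an oxidative-stress-induced growth inhibitor, was lower, with levels of 5.90 and 4.82, a difference of -1.09 (array error 0.20). The classical NRF2 targets Gclc, Gclm, Txnrd1 and Srxn1 differed by -0.22, 0.03, -0.05 and -0.20. None of the 20 measured glutathione transferases was called, their widest value being -0.42 for Gstm2. The list of 15 enzymes that remove superoxide and peroxide held no call, and its differences ran from -0.13 to 0.22.

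Genes of the circadian clock were the other group with large differences. The clock is a loop in which BMAL1 (gene Arntl) and CLOCK switch on the Per and Cry genes, whose proteins then shut BMAL1 and CLOCK off, while the PAR-domain factor DBP passes the rhythm on to output genes. In high-dose liver 6 of 14 measured clock output genes were higher and 1 was lower, with a median difference of 0.88, and 2 of 13 measured core genes were higher and 1 lower, with a median of 0.29. The medians stand beside -0.02 over all genes.

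Usp2, a ubiquitin protease with a strong daily rhythm in liver, had levels of -2.10 in control and 0.55 in high-dose liver, a difference of 2.65 (array error 0.22). Dbp had levels of 2.89 and 5.42, a difference of 2.53 (array error 0.20), by a probe at chr7:52965265-52965324 of mm9, and its second probe gave 2.49. Noct, which encodes the rhythmic phosphatase nocturnin, had levels of 0.99 and 2.96, a difference of 1.97, and its second probe gave 2.12. All 3 genes were thus raised more than 3.9-fold between these arrays, and where a second probe was measured on both arrays it gave a similar value. Tsku, a secreted liver protein, was also higher, with a difference of 1.35 from levels of -0.81 and 0.53. Coq10b, a coenzyme Q binding protein, had levels of 0.42 and 1.55, a difference of 1.13, with 1.32, 0.42 and 0.99 by its other probes and 0.97 as the mean of all its probes. The kinase gene Wee1, which holds cells back from mitosis, had levels of -2.94 and -1.79, a difference of 1.15 that came to 0.62 under the normexp correction. Short of the rule were Tef, the close relative of Dbp, at 0.96, and the P450 reductase gene Por at 0.80. Lonrf3, a ring-finger protein, was the lower member, with levels of -1.45 and -2.62, a difference of -1.17, or -0.74 under normexp.

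Among the core genes Per1 and Per3, which encode repressors, were higher and Arntl was lower. Per3 had levels of -2.05 and -0.08, a difference of 1.97 (array error 0.22), and a second probe gave 1.74. The level of Per1 was 0.75 in control and 2.63 in high-dose liver, a difference of 1.88 (array error 0.20). Per2 had levels of 0.79 and 1.40, a difference of 0.61 that was short of the rule. The gene of the activator BMAL1, Arntl, had levels of 0.05 and -1.53, a difference of -1.58 (array error 0.22), and its 2 other probes gave -1.70 and -1.67. All 3 Arntl probes were therefore past a 2-fold drop. Its partner gene Clock differed by -0.46. The repressors of Arntl in the second loop, Nr1d1 and Nr1d2, differed by 0.78 and 0.57, and Nfil3, which opposes DBP at its sites, had levels of 2.35 and 1.65, a difference of -0.70. Cry1 and Cry2 differed by -0.12 and 0.29. Ciart, a repressor of CLOCK and BMAL1, was well above background on the high lead array only, where it was at least 3.03-fold higher.

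**Figure D3:**
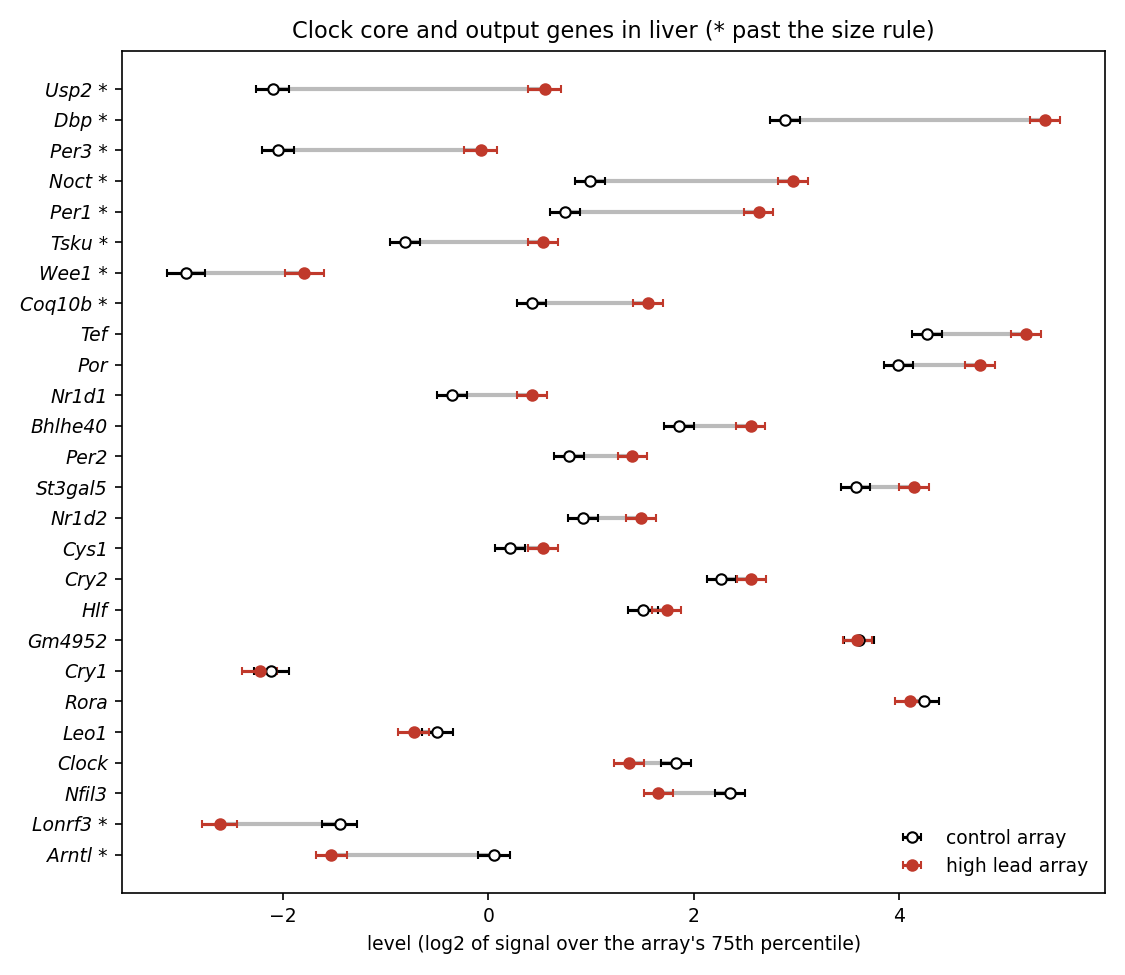
Each row is a clock core or output gene, 26 of the 27 measured, ordered by difference, with its level on the control array (open) and the high lead array (red) on the x axis (log2 of signal over the array's 75th percentile). Each bar is the array error of the difference shared equally between both arrays, and an asterisk marks a call. Usp2 and Dbp stand at the top with differences of 2.65 and 2.53, and Arntl at the bottom with -1.58.

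Promoter windows of the Per genes are shown because the clock factors act through known short elements. CLOCK and BMAL1 bind the E-box, searched as CACGTG, and DBP and NFIL3 bind the D-box, searched as TTANGTAA, each on both strands. Each window shown is the 250 bases before the RefSeq start (GRCm38.p6). Capitals mark the E-box in 1 of the 2 Per1 windows (chr11:69098699-69098948, plus strand). They also mark the D-boxes in the Per3 window (chr4:151044666-151044915, minus strand). The other Per1 window held no E-box and is not shown.
Per1: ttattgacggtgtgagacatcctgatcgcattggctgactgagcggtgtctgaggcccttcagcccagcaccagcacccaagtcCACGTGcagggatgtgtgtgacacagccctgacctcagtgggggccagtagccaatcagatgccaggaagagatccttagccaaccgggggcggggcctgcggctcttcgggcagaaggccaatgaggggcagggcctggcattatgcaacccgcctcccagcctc
Per3: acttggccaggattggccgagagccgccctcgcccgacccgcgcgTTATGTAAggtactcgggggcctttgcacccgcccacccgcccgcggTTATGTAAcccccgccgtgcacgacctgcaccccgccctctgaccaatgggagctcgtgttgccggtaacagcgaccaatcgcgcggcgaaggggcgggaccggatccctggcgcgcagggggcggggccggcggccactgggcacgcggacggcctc
The E-box of the Per1 window shown began 166 bases before the start, and the Per3 matches began 205 and 158 bases before theirs. Of the 27 measured clock genes 23 had a window in the table, and 5 of these held an E-box (21.7%), where 6.86% of all genes in the table held one. The 5 were Coq10b, Cry1, Lonrf3, Per1 and Tef, of which Lonrf3 was lower and Cry1 and Tef were not called. A D-box was in 2 of the 23 (8.70%), Coq10b and Per3, and in 2.44% of all genes. The core of the ROR element, searched as TAGGTCA, was in 2 of the 23 (8.70%), Leo1 and Nfil3, and in 2.55% of all genes. Arntl held no match to any of these 3 elements. Each of these shares counts a gene once, by a match in any of its windows. The genes were listed as known clock genes, so the shares describe the lists and not these livers. Dbp, Usp2 and Noct had no E-box of these letters in the windows searched.

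Genes of cholesterol synthesis had levels mostly below control. Of the 25 members measured, which make up the whole list, 3 were lower by the size rule and none was higher, 23 lay below control (54.0% of all genes did), and the median difference was -0.62. Hmgcs1, which makes HMG-CoA at the head of the pathway, had levels of 5.49 in control and 4.35 in high-dose liver, a difference of -1.14 (array error 0.20). Fdps, the farnesyl diphosphate synthase, had levels of 5.95 and 4.88, a difference of -1.07. The level of Sqle, which encodes the squalene epoxidase of the same pathway, was 2.09 and 0.91, a difference of -1.19. All 3 stayed past the size rule under the normexp correction, where Sqle, the widest in the main analysis, came to -1.12.

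Several further enzymes were just short of the rule. Msmo1 differed by -1.0, just under the limit before rounding, Cyp51 by -0.93, Lss by -0.93 and Dhcr7 by -0.90, and Insig1, which holds the SREBP factors in the endoplasmic reticulum and is itself a target of them, by -0.94. Ebp, a later enzyme of the pathway, differed by -0.03, less than its array error of 0.20. Srebf2, the gene of the factor that drives the pathway, differed by -0.16. Values along the pathway were therefore uneven.

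**Figure D4:**
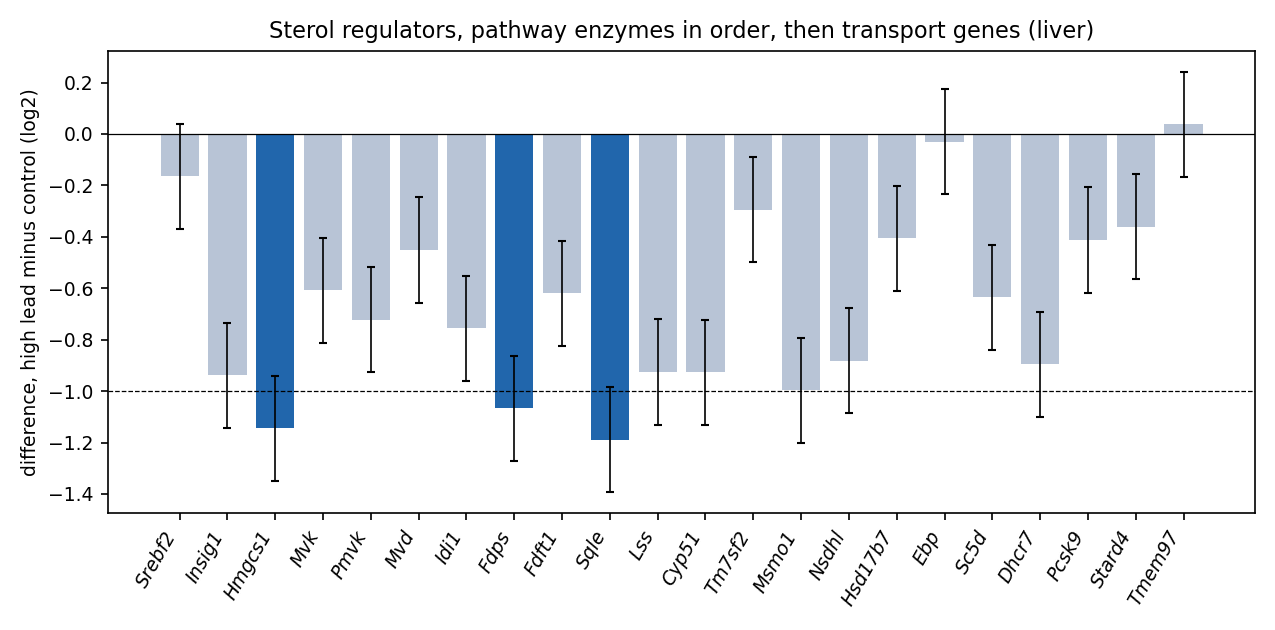
Bars give the high lead minus control difference (log2) for 22 of the 25 genes of the sterol list, regulators first, then enzymes in pathway order, then genes of transport and its control, and error bars are the array error. Dark bars are the genes lower by the size rule, Hmgcs1, Fdps and Sqle. The bar of Tmem97 lies above 0 (0.04), and it is 1 of the 2 list members above control.

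The window before Hmgcs1 (chr13:119690101-119690350, plus strand, GRCm38.p6, RefSeq) is shown with the sterol regulatory element, searched as TCACNCCAC on both strands, in capitals.
Hmgcs1: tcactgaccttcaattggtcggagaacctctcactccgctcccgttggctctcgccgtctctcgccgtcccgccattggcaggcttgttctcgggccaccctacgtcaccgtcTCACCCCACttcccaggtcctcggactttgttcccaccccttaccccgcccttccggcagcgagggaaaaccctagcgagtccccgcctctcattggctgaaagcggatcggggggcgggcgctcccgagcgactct
This was the only match among the 17 genes of the list with a window (5.88%), and 1.22% of all genes in the table held it in any of their windows. It began 137 bases before the start. The genes were listed as known sterol genes, so this share too describes the list and not these livers.

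Fatty acid and triglyceride synthesis showed smaller differences. Of 25 measured genes 1 was lower, none was higher, 19 lay below control (54.0% of all genes did) and the median difference was -0.21. The lower gene was Elovl3, an elongase of very long chain fatty acids that is also high in males, with levels of 6.35 and 4.85, a difference of -1.5 (array error 0.20). Short of the rule were Acly at -0.80, Acacb at -0.74, Fasn at -0.70 and Acss2 at -0.68, all enzymes of acetyl-CoA and malonyl-CoA supply or use. Srebf1 differed by 0.06. Among 31 measured genes of fatty acid oxidation 1 was higher and 1 lower. Acot3, a peroxisomal acyl-CoA thioesterase, was the higher one, with levels of -2.19 and -0.46, a difference of 1.72 (array error 0.22), while its neighbours in the family Acot1, Acot2 and Acot4 differed by 0.23, 0.15 and 0.33. In the lipid droplet list of 16 measured genes Plin4, a coat protein, was higher at 1.08 (0.93 under normexp).

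The fasting list held calls on both sides. Of its 23 measured genes 2 were higher and 2 lower, with a median of 0.02. Igfbp1, the insulin-repressed binding protein of IGF1, had levels of 2.99 and 1.58, a difference of -1.41 (array error 0.20). Pdk4, the kinase that shuts off pyruvate dehydrogenase, had levels of -0.87 and -2.12, a difference of -1.26, or -0.79 under normexp. Both are genes that insulin lowers. Mfsd2a, a lysolipid carrier induced by fasting, was higher, with levels of 1.44 and 2.94, a difference of 1.5 (array error 0.20). Ppp1r3g, a glycogen-targeting phosphatase subunit, had levels of -1.86 and -0.75, a difference of 1.11 (0.74 under normexp). The gluconeogenic enzymes Pck1 and G6pc differed by 0.25 and -0.12. Pfkfb3, which makes the activator of glycolysis fructose 2,6-bisphosphate, was the only call among 19 glycolysis genes, with levels of 1.16 and 2.23, a difference of 1.07. Angptl8, an insulin-induced inhibitor of lipoprotein lipase, had levels of 6.27 and 7.27, just short of the rule at 0.99.

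Targets of ATF4, the factor of the integrated stress response that raises amino acid synthesis, were mostly above control. Of 21 measured members 3 were higher, none was lower, 18 lay above control (46.0% of all genes did) and the median difference was 0.39. Asns, the asparagine synthetase, had levels of -1.41 and -0.03, a difference of 1.39 (array error 0.22). Psat1 of the serine pathway had levels of -2.66 and -1.54, a difference of 1.12, and Mthfd2 of mitochondrial folate metabolism had levels of -3.12 and -2.10, a difference of 1.01. The last pair came to 0.71 and 0.54 under the normexp correction, while Asns kept 1.05. Phgdh, the first enzyme of serine synthesis, differed by 0.93, the lipoprotein receptor Vldlr by 0.87 and the kinase-like inhibitor Trib3 by 0.79. Atf4 itself differed by 0.08. The endoplasmic reticulum chaperone list held no call among 19 genes and had a median of -0.02, with Creld2 widest at 0.85.

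The window before Asns (chr6:7693210-7693459, minus strand, GRCm38.p6, RefSeq) is shown with the core that C/EBP and ATF factors bind in amino acid response elements, searched as TGATGNAA on both strands, in capitals.
Asns: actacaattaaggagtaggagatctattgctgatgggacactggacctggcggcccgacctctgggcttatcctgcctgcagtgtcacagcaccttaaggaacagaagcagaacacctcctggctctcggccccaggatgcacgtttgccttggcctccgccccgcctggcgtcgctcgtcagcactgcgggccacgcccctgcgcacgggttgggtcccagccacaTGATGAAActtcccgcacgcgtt
The match began 23 bases before the start. Of the 20 genes of the list with a window 6 held the core (30%), Atf3, Chac1, Fgf21, Nupr1 and Vldlr beside Asns, and 3.91% of all genes in the table did, each counted once by a match in any of its windows. Genes were placed on this list as known ATF4 targets, so the share describes the list and not these livers.

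The lowered genes with symbols included several regulators of growth and stress. Cdkn1a, whose product p21 blocks the cell cycle and which p53 switches on, had levels of -1.09 in control and -3.27 in high-dose liver, a difference of -2.18 (array error 0.30), or -1.13 under the normexp correction. Gadd45g, a stress sensor of the same p53 list, had levels of 4.89 and 3.20, a difference of -1.70 (array error 0.20). The other 15 measured p53 targets were not called, and Mdm2, Ccng1 and Bax differed by 0.14, 0.18 and 0.10. Myc, the growth-promoting transcription factor, had levels of -1.92 and -3.66, a difference of -1.74 (array error 0.31), but -0.91 under normexp. The immediate early gene Fos had levels of -2.16 and -3.24, a difference of -1.08, or -0.59 under normexp. Myc and Fos were the only calls among 20 measured immediate early genes, of which Jun, Junb and Nr4a1 differed by -0.09, -0.01 and 0.16. Junos, a transcript antisense to Jun, had levels of -1.61 and -3.25, a difference of -1.64, or -0.91 under normexp. Ccne1, a cyclin that starts DNA replication, was the only call among 22 measured cell cycle genes, with levels of -1.39 and -0.18, a difference of 1.22 (0.90 under normexp). Mki67 and Pcna differed by 0.05 and 0.08.

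Male-biased liver genes, whose sex difference is set by growth hormone, lay mostly just below control, and female-biased ones lay mostly above it. Cish, a STAT5 target that damps growth hormone signalling, had levels of 3.33 and 2.29, a difference of -1.05 (array error 0.20). Bcl6, the repressor that holds female genes down in male liver, had levels of 2.45 and 1.5, a difference of -0.94, short of the rule. Stat5a and Stat5b differed by -0.57 and -0.45, while Igf1 and Ghr differed by -0.07 and -0.11. Of 23 measured male-biased genes 22 lay below control (54.0% of all genes did), with a median of -0.17 and 1 call, Elovl3. The differences of the most abundant of them were small, and the major urinary proteins had a median of -0.05. Several major urinary proteins are in the male-biased list. Their probes may not tell them apart, so members of that list may not be separate measurements. The male-biased genes are bright, with a median control level of 6.79, and lists of other bright liver genes also leaned below control. Below control lay 26 of 33 plasma protein genes, 18 of 21 respiratory chain subunits and 7 of 12 hepatocyte markers. Of 10 measured female-biased genes 8 lay above control (46.0% of all genes did), with a median of 0.33 and 2 calls, Acot3 and Cyp2a4. The Cyp2a4 probe may not tell this gene from Cyp2a5. Other female-biased members included Cyp2b9 at 0.84, Fmo2 at 0.45 and Cyp17a1 at -0.21. The ranges of both lists overlapped, from -1.5 to 0.01 for the male-biased and from -0.21 to 1.72 for the female-biased genes.

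Beside Bcl6 on chromosome 16, 3 noncoding features of the array were also lower, and this locus was singled out after the values were seen. The feature called chr16:23992037-24001037_F, whose probe lies 30000 bases from that of Bcl6 on mm9, had levels of 1.01 and -0.19, a difference of -1.20. Its reverse-strand counterpart chr16:23992037-24001037_R had levels of -1.76 and -3.22, a difference of -1.47. Another, chr16:23989160-23992539_F, was well above background on the control array only, where it was at least 4.77-fold higher than on the high lead array. Rtp2, the other gene measured nearby, differed by 0.00. The same 3 noncoding features differed by -0.74, -1.18 and -1.20 in the high-dose kidney, where Bcl6 differed by -0.94. In brain Bcl6 differed by 0.03.

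Immune transcripts lay slightly below control. Over all genes 54.0% lay below control, a share that stands beside each such count in this paragraph. Of 24 measured interferon response genes 22 lay below control, with a median of -0.26. The only call was Ifit2, an interferon-induced inhibitor of translation, with levels of -2.54 and -3.64, a difference of -1.10, or -0.50 under normexp. All 16 genes of antigen presentation lay below control, from -0.03 for H2-Aa to -0.51 for Ciita, the master regulator of MHC class II, and none was called. Of 30 measured acute phase genes the metallothioneins Mt1 and Mt2 were the only calls, and Saa1, Saa2 and Hp differed by -0.34, -0.40 and -0.14. Il1b, which encodes the cytokine interleukin 1 beta and was chosen after its values were seen, was lower at -1.27. In bulk tissue fewer cells of a type and less RNA per cell cannot be told apart, so markers of the cells that carry such transcripts are given beside them. None of the 15 Kupffer cell and macrophage markers was called, 12 of 15 lay below control and their summed linear level was 80.1 on the control array and 76.3 on the high lead array. Of the 14 neutrophil markers 7 were measured and none was called, with S100a9 at -0.78 and S100a8 at -0.71, and Ngp and Ltf not well above background on either array. The lymphocyte sum was 51.6 on the control array and 44.0 on the high lead array, over 9 measured markers with no call, of which 5 lay above control. The neutrophil sum was 98.9 and 100.5, although 6 of the 7 measured markers lay below control, with a median of -0.13. The part of these cells in the immune values was not tested.

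Several digestive enzymes of the exocrine pancreas were seen on the high lead array only. Try5 and Try4, both trypsins, were at least 8.01-fold and 6.10-fold higher there, Cela3b, an elastase, at least 2.92-fold, and the carboxypeptidases Cpa1 and Cpb1 at least 2.94-fold and 2.26-fold. These bounds set the level on the high lead array against the higher of the probe's own level on the control array and the lowest level well above background there. Cela2a, another elastase, was measured on both arrays, with levels of -2.68 and -1.02, a difference of 1.66 (array error 0.25), or 1.04 under normexp. Bhlha15 and Sycn, which encode a transcription factor and a granule protein of acinar cells, were chosen after their values were seen and were higher by 1.36 and 1.09. Of the 19 acinar markers on the design 8 were measured on both arrays and 8 on the high lead array only. Of these last 8, which were measured only where they are high, 5 passed the 2-fold bound, while Pnlip, Prss2 and Prss1 had bounds of 1.62-fold, 1.17-fold and 1.02-fold. The 8 measured on both ran from -0.30 for Ctrl to 1.66, with Cela1 at -0.19 and Amy2a5 at -0.23, and their summed level was 42.0 on the control array and 37.6 on the high lead array. Reg1, Amy2b and Pnliprp1 were not well above background on either. Whether pancreas cells took part in these values was not tested.

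In all 875 genes were well above background on the high lead array only and 710 on the control array only. Past a 2-fold bound lay 100 of the former (11.4%) and 108 of the latter (15.2%). The largest bounds among the higher symbols were those of Try5, Cyp2b13 and Try4 and of Rgs13, a regulator of G-protein signalling, at 4.95-fold. On the control array only, Msc and Myf6, factors of muscle development, were at least 5.16-fold and 4.13-fold higher there, Fbxo24 at least 4.73-fold and Dnaaf4, an assembly factor of cilia, at least 4.41-fold.

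The remaining genes with the largest differences belonged to no list. Nnmt, which methylates nicotinamide in liver, had levels of 0.43 and 1.94, a difference of 1.51 (array error 0.20), and a second probe gave 0.82. Nrg4, which encodes a secreted ligand of ErbB4, had levels of -1.34 and 0.13, a difference of 1.48, but its 3 other probes gave 0.62, 2.69 and 0.87. Pip5k1a, a lipid kinase, had levels of 0.89 and 3.00, a difference of 2.11, whereas its 2 other probes gave 0.09 and 0.32. The values of Nrg4 and Pip5k1a therefore depend on the probe, and the mean over the probes of Pip5k1a was 0.84. Lipo3, of the acid lipase family, had levels of -3.23 and -1.69, a difference of 1.54 that came to 0.80 under normexp. Otos, an inner-ear protein, had levels of -3.50 and -2.01, a difference of 1.49, and its other probe gave -0.71. Both lay near background.

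Depp1, a target of the FOXO factors, had levels of 1.31 and -0.41, a difference of -1.72 (array error 0.21). It was the brightest of the remaining lowered genes, and its call held under normexp at -1.55. Ubash3a of T-cell signalling, Cldnd2, Wfikkn1, Gngt1, Ms4a7 of macrophages, Sult4a1 and Krt1 were the rest of the 15 lowest symbols, with differences from -1.87 for Ubash3a to -1.45 for Krt1. All 7 had control levels between -2.42 for Krt1 and -1.53 for Wfikkn1, and none passed the size rule under normexp, where they ranged from -0.90 to -0.58.

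The imprinted locus on distal chromosome 12 held 2 of the higher transcripts. Meg3, a maternally expressed noncoding RNA, had levels of 0.15 and 1.39, a difference of 1.24 (array error 0.21), and its 2 other probes gave 1.38 and 0.91. Rian, 116311 bases farther along on mm9, had levels of -3.38 and -2.38, a difference of 1.01 just past the limit. Mirg, farther along the cluster, had levels of -2.45 and -1.76, a difference of 0.69. The transcript AK053394, which lies between Rian and Mirg on the same strand, differed by 0.02, and a reverse-strand feature of the domain differed by -0.22. The values of the domain were therefore uneven. The 3 named RNAs are known to be read from the same strand of the same domain. Near Egfr on chromosome 11 the levels went opposite ways. Egfr had levels of 4.05 and 4.82, a difference of 0.77, and its antisense transcript Egfros had levels of 1.51 and 0.45, a difference of -1.06. Across the genome 8 pairs of called features lay within 200000 bases of each other, and in 7 of them both differed in the same direction. Some pairs may not be separate loci, such as Map3k6 and LOC102641377, 53 bases apart, and both strands of chr16:23992037-24001037, 446 bases apart. The share for all neighbouring features was not computed. The Meg3 and Egfr loci were chosen after their values were seen.

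The same genes were read in the other tissues at the same dose, each against its own control array. Of the 156 genes called in liver 123 were measured in kidney and 124 in brain. In kidney 11 had the same call, which is 7.05% of the liver calls and 3.00% of the 367 kidney calls (1.71% of genes measured in kidney, 1.14% higher and 0.579% lower), and in brain none did, where 106 genes were called in all (0.464%, 0.206% higher and 0.258% lower). The shared genes included Mt1 and Mt2, with kidney differences of 1.27 and 1.20, Dbp with 1.47, Asns with 1.20, Nqo1 with 1.02, Gadd45g with -1.93, Cish with -1.13 and the reported probe of Pip5k1a with 1.12. The opposite call was made in kidney for 5 liver calls, Cdkn1a, Cela2a, Meg3 and Mfsd2a among them. At the lower dose in kidney Mt1 and Mt2 differed by 0.28 and 0.24. Of the liver-higher genes 57 were measured in kidney, with a median there of 0.18, and 39 of them lay above the kidney control (42.7% of all genes measured in both tissues did). Of the liver-lower genes 66 were measured in kidney, with a median of -0.19, and 48 lay below control (57.3% of all genes did). In brain 38 of 60 liver-higher genes lay above control (49.5% of all), with a median of 0.10, and 22 of 64 liver-lower genes lay below it (50.5% of all), with a median of 0.04. The other clock genes were closer to control in kidney, with Usp2 at 0.01, Noct at 0.20, Per1 at 0.42 and Per3 at 0.57, while Arntl was at -0.90. In brain Dbp, Per1 and Arntl differed by 0.12, 0.17 and 0.02. The sterol list had a median of -0.35 in kidney and 0.07 in brain. None of these tissue differences was tested, since each group has 1 array. The high-dose kidney and brain arrays also differed from their controls in markers of other tissues, given below. The part of this in the values here was not tested.

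**Figure D5:**
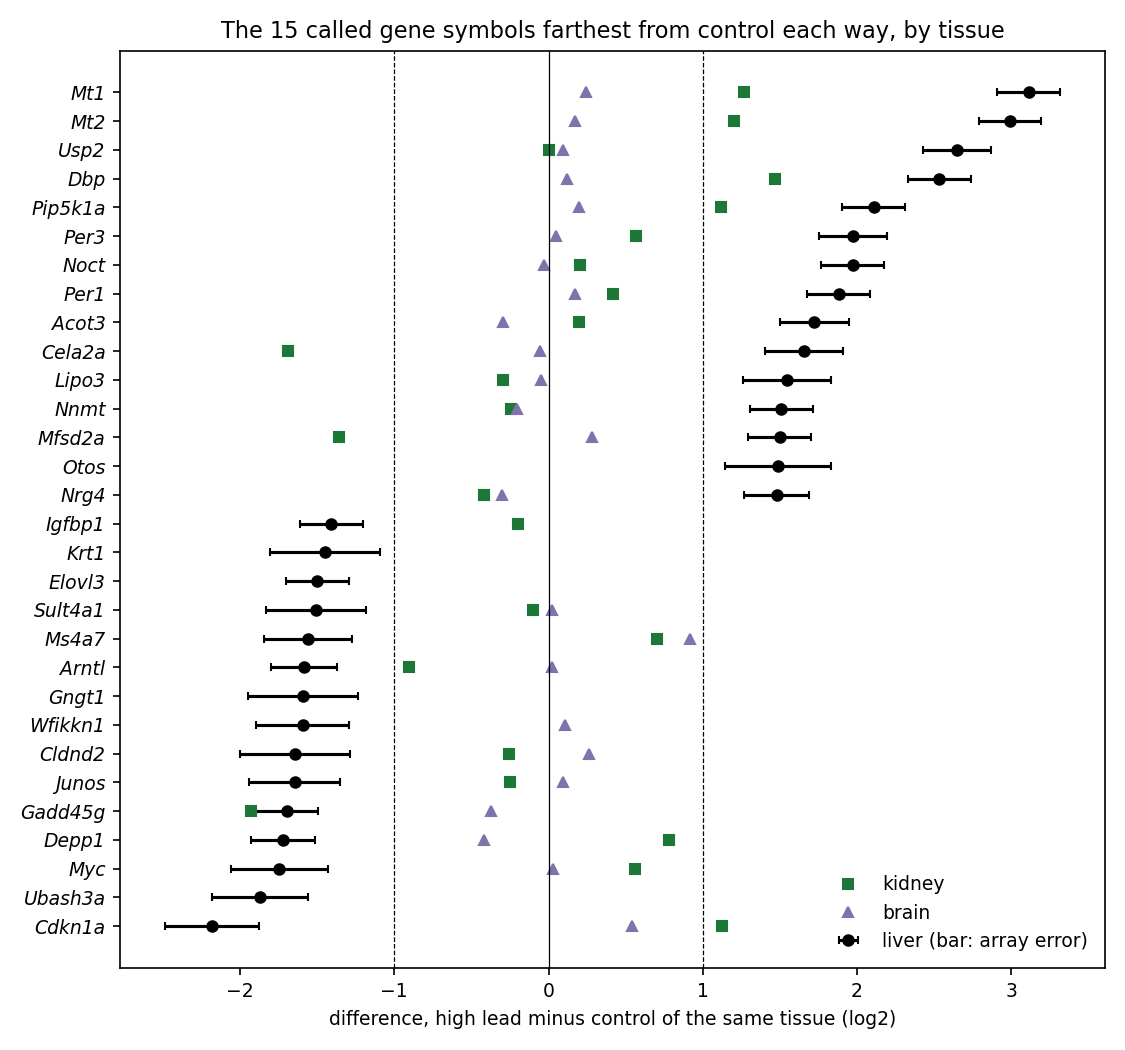
Rows are the 15 gene symbols farthest above and the 15 farthest below control among the liver calls, with the high lead minus control difference on the x axis (log2) for liver (black, bar is the array error), kidney (green squares) and brain (purple triangles), where measured. Mt1, Mt2, Dbp, Pip5k1a and Gadd45g lie past 2-fold in kidney on the same side as in liver, while Cdkn1a, Cela2a and Mfsd2a lie past it on the other side. No brain point passes 2-fold.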

How the data were processed

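RNA from male mouse brain, kidney and liver was labelled with Cy3 from 50 ng and hybridised to 8 Agilent 1-colour arrays on 1 slide, per the labels' protocols and the file headers, and liver control and high-dose liver are 1 array each. Spot intensity, on a linear scale, was extracted by the authors with Agilent Feature Extraction (version 12.0.3.1 in the submitters' processing notes). Per the file headers, the processed intensity had its background subtracted and its spatial trend removed, with no scaling from array to array. The value table that the authors deposited proved to be the same intensity divided by each array's 75th percentile, and served as an alternative. Flags for spots that were well above background, saturated or outlying, coded as 0 or 1 in the other columns, were deposited by the authors in the same files.

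Here the log2 of the processed signal of non-control spots, without spots marked as outliers, was averaged per probe and the array's 75th percentile was subtracted. A gene was represented by its measured probe with the highest mean level over both liver arrays. Gene names came from the array files, and 32994 probes were matched by accession to RefSeq symbols, which changed 1535 names. Coordinates of probes were read from the same files and are in the mm9 build. Promoter windows came from a RefSeq table of GRCm38.p6, the 250 bases before each start, and a gene that is not in that table was not searched. No p-value was computed, because 1 array in each group leaves no residual degrees of freedom. Arrays have no count depth, and their number limits the precision. The size rule was tried on simulated data whose only noise was the array error and whose planted changes were past the limit. The simulation held no spread between animals, so it cannot say how the calls would hold in other animals. The 45 gene lists, 16 marker lists and the comparison itself were chosen with earlier results of these data known.

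Genes named were, by rule, the 15 largest differences in each direction among called gene symbols, all called members of the lists, the metallothionein list, the 4 largest bounds in each direction, up to 4 further members of a described list and liver calls of opposite sign in another tissue; others are named as chosen after their values were seen or as known members of a pathway. The 10 alternatives changed scaling, background correction (normexp with offset 50 in limma 3.58.1, R 4.3.3), the filter on dim probes, the choice of probe, the spots left out, the value table and the size limit of the rule. Some list members are counted but not reported by name here. Other computations used Python 3.11.15 with numpy 2.4.6 and pandas 2.3.3.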

Additional observations from a re-analysis of the deposited data

Results flagged for a closer look

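In 5 transcripts called in high-dose liver, the high-dose kidney was called the other way, each against its own control array, and these differences between the tissues were not tested. Cdkn1a, the p21 gene, differed by -2.18 in liver and 1.13 in kidney. Cela2a, a pancreatic elastase, differed by 1.66 in liver and -1.69 in kidney, and in liver it came to 1.04 under the normexp correction. Meg3, the imprinted noncoding RNA, differed by 1.24 in liver and -1.18 in kidney. Mfsd2a, the lysolipid carrier, differed by 1.5 in liver and -1.36 in kidney. The noncoding feature chr1:71730016-71740391_F differed by 1.25 in liver and -1.21 in kidney, and in liver it came to 0.55 under the normexp correction. In brain the same 5 were not called, with Cdkn1a at 0.54, Cela2a at -0.06, Meg3 at 0.00 and Mfsd2a at 0.28. The kidney arrays differed in genes typical of other tissues too. The medians that follow cover only list members that were also measured on both liver arrays, by the probe chosen there. Of the 12 kidney tubule markers 7 were measured on neither liver array and are left out. The median kidney difference was 0.31 over 10 hepatocyte markers and 1.99 over 9 major urinary proteins. It was 2.74 over 4 spermatid markers, -1.68 over 4 adrenal markers and -0.01 over 5 kidney tubule markers. In brain the spermatid median was 3.74 over 4 markers. The part of this in the kidney and brain values was not tested.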

How the results depend on the processing

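The counts of 68 higher and 88 lower genes depended on the size limit, the background correction and the filter on dim probes. Under the normexp correction 23 genes were higher and 27 lower, of which 23 and 26 were called in the main analysis. With a stricter filter on dim probes the counts were 35 and 38, and at a 1.5-fold limit 176 and 229. With no filter 117 genes were higher and 132 lower. Genes past a 2-fold bound and seen on 1 liver array only numbered 10 higher and 12 lower under normexp. Median scaling, quantile normalization, the mean of probes, another probe choice, outlying spots kept and the deposited value table gave 62 to 70 higher and 84 to 90 lower genes. The largest shift that a scaling gave the median of all genes was 0.01. The call of Otos turned to -0.71 when the probe brightest over all 8 arrays was used. Of 56 named calls 31 kept the size rule under normexp and 34 under the stricter filter, where the other 22 were left out as dim. The sterol median stayed between -0.62 and -0.60 and that of clock output genes between 0.70 and 0.92 over the alternatives run for lists. No paired analysis was possible because each group has 1 array. Signal over background limits the dim genes, and no array can be left out.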

Other observations

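The broad hepatocyte programme showed little difference between the livers. None of 36 measured genes of the urea cycle and amino acid breakdown was called (median difference -0.07), nor any of 23 apolipoprotein and lipoprotein genes (-0.05), 33 plasma protein genes (-0.03) or 21 respiratory chain subunits (-0.05). Among 27 measured bile acid genes none was called, with Cyp7a1, the rate-limiting enzyme of bile acid synthesis, at 0.84, Cyp8b1, which sets the cholic acid share, at -0.72 and the basolateral carrier subunit Slc51b at -0.95. Of 23 pericentral genes Cyp2a5 was the only call, and the 21 periportal genes held none, with medians of 0.06 and 0.03. Heat shock genes held no call among 16, with Hspa1a at -0.98 and Hspa1b at -0.53. None of 23 measured matrix and collagen genes was called, and Col1a1 differed by 0.05.

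Of 16 measured glucocorticoid-responsive genes 3 were higher, Mt1, Mt2 and Per1, which other lists also hold, while Fkbp5 and Tsc22d3, targets of the receptor, differed by 0.42 and 0.27. The largest differences of all among transcripts without a gene symbol were 2.67 for A930033H14Rik and -2.62 for AK140216.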
